A study of Mus musculus with 4 samples.

Results

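Sertoli cells are the nurse cells of the seminiferous tubule, and much of their work is done through secreted proteins. Clusterin, transferrin, cystatins, cathepsin L and other products pass from them into the tubule fluid and to the germ cells. Those germ cells that lie behind the blood-testis barrier depend on Sertoli cells for iron and for the balance between proteases and their inhibitors. Of the 32285 genes in the tables, 6 such genes were followed here, namely Clu, Trf, Cst9, Cst12, Ctsl and Qpct, matched by symbol. The question was which of these transcripts Sertoli cells kept in culture, in testicular organoids (TOs) against the testis.

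The data were single-cell RNA sequencing of 4 libraries. The 2 TO libraries (TO 1 and TO 2) came from 28-day-old organoids, grown from dissociated testis cells of 6 dpp mice at 34 °C in medium with 10% knockout serum replacement, 1 ng/mL FSH and 1 µM testosterone. The label of the dissociation step names day 21 for the TOs, whereas the text of the study gives day 28 for the sequenced TOs. The 2 testis libraries (testis 1 and testis 2) came from the testes of 28-day-old mice. The age of the TOs counts days in culture, begun with cells of 6 dpp mice, whereas that of the testes is the age of the mice. TOs and testes thus shared neither the age of their cells nor the time spent in the body. The organoids had also been supplied with hormones in the medium. The study names 2 independent batches of organoids, and p-values here measure the spread between libraries, which may be partly technical.

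Of 37898 cells kept, 2807 were in clusters named Sertoli-like from their markers, 1463 and 636 in TOs and 461 and 247 in testes. Of 7 Sertoli markers, Sox9, Wt1, Cldn11, Rhox8 and Aard were present in every library, Amh was low (1.12 to 21.1 CPM, the UMIs of a gene scaled by the total UMIs of the summed cells) and Krt18 was at 0 in both testes. The Sertoli cells held 14149135 and 7141208 UMIs in TOs and 2556725 and 1339029 in testes, so that counting error was larger on the testis side. Different clusters held most Sertoli cells in the 2 conditions. Cluster 4 held 1317 and 611 of the TO cells but 152 and 133 shallow testis cells, with medians of 1920 and 1966 UMIs, and cluster 19 held 294 and 113 testis cells and no TO cell. A small cluster 22 held 146 and 25 TO cells and 15 and 1 testis cells.

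Germ cell RNA stood out in the testis Sertoli cells. The 7 spermatid markers summed to 1834 and 3824 CPM there, with none of the 7 at 0, against 1.13 and 2.10 in TO Sertoli cells, with 3 of the 7 at 0. Free RNA was estimated from genes that Sertoli cells should lack. The estimate was 31.2% and 14.1% of the testis Sertoli UMIs and 6.48% and 5.37% of the TO ones. The profile of this background was the sum of all barcodes of a library. It thus held whole cells, Sertoli cells among them, and mixed cells were not told apart from free RNA. Sertoli fold changes, and their difference from the other somatic cells, were therefore computed again after this background was subtracted, whereas those of the other cell types were not. The classes called spermatid and endothelial were not compared singly: TO cells called spermatid carried Sertoli markers, and in the class called endothelial the TO cells of the cluster had no Pecam1 UMI, whereas its testis cells had 308 and 274 CPM.

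The genes lie at separate places on GRCm38, apart from the cystatins. Clu (ENSMUSG00000022037) is at chr14:65968483-65981547 on the plus strand, Trf (ENSMUSG00000032554) at chr9:103204001-103230444 on the minus strand, Ctsl (ENSMUSG00000021477) at chr13:64359337-64370890 on the minus strand and Qpct (ENSMUSG00000024084) at chr17:79051906-79090378 on the plus strand. Cst12 (ENSMUSG00000027443, chr2:148789361-148793546) and Cst9 (ENSMUSG00000027445, chr2:148835147-148838738) are neighbours on the plus strand, 41600 bases apart in a cluster of cystatin genes. All 6 are protein-coding genes, and the positions span exons and introns. No run of 60 bases in the transcripts of Clu, Cst9, Cst12 or Qpct occurred in a transcript of another gene, so that reads of the 2 cystatins could be told apart. For Trf, 2013 of 3471 such runs were shared with other annotated transcripts, among them the overlapping gene model Gm20425, which is not in the count tables. For Ctsl, 389 of 6542 were shared.

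The promoters of the 2 neighbouring cystatins are shown because these genes share a cell type and a locus, yet differed in how evenly the TO libraries expressed them. Each run covers 250 bases before and 50 after the RefSeq start on GRCm38.p6 (Cst12 at chr2:148789115-148789414, Cst9 at chr2:148834897-148835196, both plus strand), and capitals mark E-boxes, spelled CANNTG.
Cst12: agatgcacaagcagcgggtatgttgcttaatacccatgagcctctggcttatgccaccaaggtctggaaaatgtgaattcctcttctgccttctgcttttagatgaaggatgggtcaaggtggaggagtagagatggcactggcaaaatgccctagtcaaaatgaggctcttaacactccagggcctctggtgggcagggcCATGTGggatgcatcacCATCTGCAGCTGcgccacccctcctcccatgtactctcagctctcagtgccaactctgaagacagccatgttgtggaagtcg
Cst9: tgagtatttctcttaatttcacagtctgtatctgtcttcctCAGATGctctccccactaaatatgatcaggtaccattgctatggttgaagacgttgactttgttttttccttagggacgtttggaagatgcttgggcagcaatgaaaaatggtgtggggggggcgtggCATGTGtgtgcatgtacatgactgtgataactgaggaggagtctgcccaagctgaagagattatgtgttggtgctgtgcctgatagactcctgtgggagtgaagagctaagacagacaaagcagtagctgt

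The Cst12 promoter held 3 E-boxes, the last 2 of them directly adjacent, and the Cst9 promoter held 2. An E-box is common, and 72.3% of 32851 promoters of the same length held at least 1 on either strand. Neither window held TATAAA (13.6% of promoters), ACAAT (31.0%), AGAACA (19.0%), TGACG (20.8%) or AGATAA (11.2%). These are matches of letters only. RefSeq promoter entries matched 3 of the 6 genes, these 2 and Ctsl.

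In Sertoli cells, none of the 6 genes passed the test for a difference between TO and testis. This asked for an adjusted p below 0.01 in edgeR's quasi-likelihood test and an absolute log2 fold change above 1. Of the 12593 genes tested 24% passed, 7.34% higher and 16.6% lower in TOs. With only 6 genes, no call is not far from that share. With the background subtracted, 76 genes were called higher and 127 lower, against 924 and 2093. At an unadjusted p under 0.05, 2 of the 6 (Clu and Qpct) and 6564 of all 12593 genes passed in edgeR, and DESeq2 called 0 of the 6. Clu, Cst12 and Ctsl had 95% intervals within 2-fold in either direction. The intervals of Qpct, Trf and Cst9 reached past 2-fold, so that a change of that size could not be set aside for them. The median log2 fold change was 0.14 over the 6 genes and 0.02 over all genes tested.

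**Figure D1:**
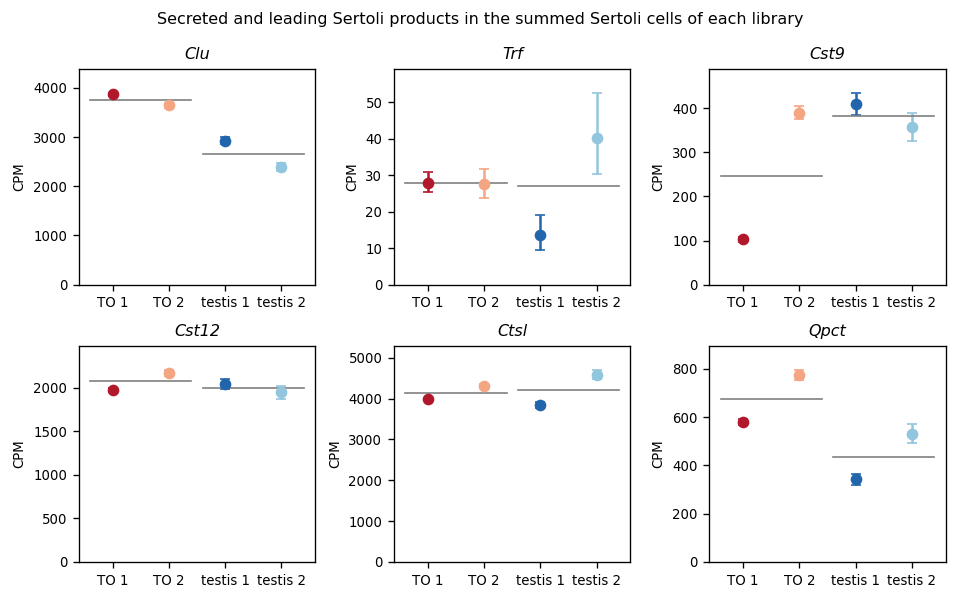
CPM (y axes, linear, from 0) of each gene in the summed Sertoli cells of TO 1, TO 2, testis 1 and testis 2. Bars are exact 95% Poisson intervals, which cover counting error only, and grey lines are the means of the 2 libraries. Cst12 and Ctsl lay at similar levels in all 4 libraries, Clu was higher in both TOs, and Cst9 was low in TO 1 alone (103 CPM against 356 to 409 in the other libraries).

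Clu encodes clusterin, an extracellular chaperone and one of the most abundant glycoproteins that Sertoli cells secrete. Its level in Sertoli cells was 3865 CPM in TO 1, 3641 in TO 2, 2929 in testis 1 and 2382 in testis 2. Both TO libraries were above both testis libraries, with means of 3753 ± 159 in TOs and 2656 ± 386 in testes (SD, n = 2 each). The log2 fold change was 0.54 (SE 0.18, 95% interval 0.11 to 0.96), with an adjusted p of 0.048 in edgeR, and so Clu missed the threshold. With the background subtracted it was 0.17, and among Sertoli cells of at least 3000 UMIs it was 0.41.

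The Clu level differed between clusters in both conditions. In the shallow testis cells of cluster 4 it was 1622 and 558 CPM, and in the deeper testis cells of cluster 19 it was 3231 and 2896. In the 15 testis 1 cells of cluster 22, whose median was 2385 UMIs, it was 109. The TO cells of cluster 4 had 3952 and 3665. The 146 and 25 TO cells of cluster 22, with medians of 2272.5 and 1717 UMIs, had 625 and 258. Cst12 and Ctsl were likewise lower in cluster 22 than in cluster 4 in TOs, and lower in cluster 4 than in cluster 19 in testes. The testis cells of cluster 4 also had the most Prm1, which encodes a protamine of condensing spermatids, at 2531 and 7986 CPM, and its part in the Clu difference was not tested.

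Cst12 encodes a small protein of the cystatin family, which includes inhibitors of cysteine proteases. Its level was 1978 CPM in TO 1, 2168 in TO 2, 2041 in testis 1 and 1946 in testis 2. The groups overlapped, and the means differed by less than the spread, at 2073 ± 135 in TOs and 1994 ± 67.0 in testes (SD, n = 2 each). The log2 fold change was 0.10 (SE 0.17, 95% interval -0.31 to 0.50, edgeR adjusted p 0.68). Among the 21 alternative fits it ranged from -0.25 to 0.39 and was never called.

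Ctsl encodes cathepsin L, a lysosomal cysteine protease that Sertoli cells also release. Its level was 3986 CPM in TO 1, 4298 in TO 2, 3832 in testis 1 and 4582 in testis 2. The testis values lay on both sides of the TO values, with means of 4142 ± 221 in TOs and 4207 ± 530 in testes (SD, n = 2 each). The log2 fold change was 0.02 (SE 0.19, 95% interval -0.43 to 0.46, edgeR adjusted p 0.95), and its sign turned with several of the alternatives, none of which gave a call.

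Qpct encodes glutaminyl-peptide cyclotransferase, a secretory enzyme that forms the pyroglutamate end of some peptides and hormones. Its level was 578 CPM in TO 1, 774 in TO 2, 341 in testis 1 and 531 in testis 2. Both TO libraries were above both testis libraries, but TO 1 was only just above testis 2. In the testes, Qpct was at 220 and 113 CPM in the shallow cells of cluster 4 and at 371 and 649 in cluster 19. The TO cells of cluster 4 had 590 and 779, so that cluster 19 of testis 2 was above those of TO 1. The part of the shallow testis cells in the Qpct difference was not tested. The means were 676 ± 139 and 436 ± 134 (SD, n = 2 each), and the log2 fold change was 0.68 (SE 0.27, 95% interval 0.05 to 1.31) with an edgeR adjusted p of 0.078. It was positive in all 21 alternative fits, between 0.35 and 1.05, and called in none of them.

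Trf encodes transferrin, the iron carrier by which Sertoli cells are known to deliver iron to germ cells behind the barrier. Its level in Sertoli cells was low, at 28.0 CPM in TO 1 and 27.6 in TO 2. It was 13.7 in testis 1, from 35 UMIs in all, and 40.3 in testis 2, from 54 UMIs. The exact 95% intervals of the 2 testes (9.54 to 19.0 and 30.3 to 52.6) did not overlap, and the TO values lay between them. The log2 fold change was 0.19 (SE 0.42, 95% interval -0.81 to 1.19, edgeR adjusted p 0.75). It was -0.53 without testis 1 and 1.08 without testis 2, and was called in neither fit.

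Cst9 encodes another cystatin, named testatin in the mouse, which is known from pre-Sertoli cells of the fetal testis. Its level was 103 CPM in TO 1, 389 in TO 2, 409 in testis 1 and 356 in testis 2. TO 1 thus stood at a level well under the other 3 libraries, and TO 2 lay between the testes. The log2 fold change was -0.58 (SE 0.54, 95% interval -1.87 to 0.70, edgeR adjusted p 0.42). A single TO library decided this value: without TO 2 it was -1.89 and called (adjusted p 4.9e-08), whereas without TO 1 it was 0.09 and not called.

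The gap between the TO libraries in Cst9 held in another set of cells. Among the cells that clustered with spermatids, 88 in TO 1 and 101 in TO 2 had Sertoli markers (Aard at 7048 and 8400 CPM) and almost no spermatid transcripts (0 and 1 UMI over 7 markers). In them Cst9 was at 126 and 490 CPM, again lower in TO 1. Cst12 was at 2212 and 2504 in the same cells. With these cells counted as Sertoli, the Cst9 log2 fold change was -0.56.

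**Figure D2:**
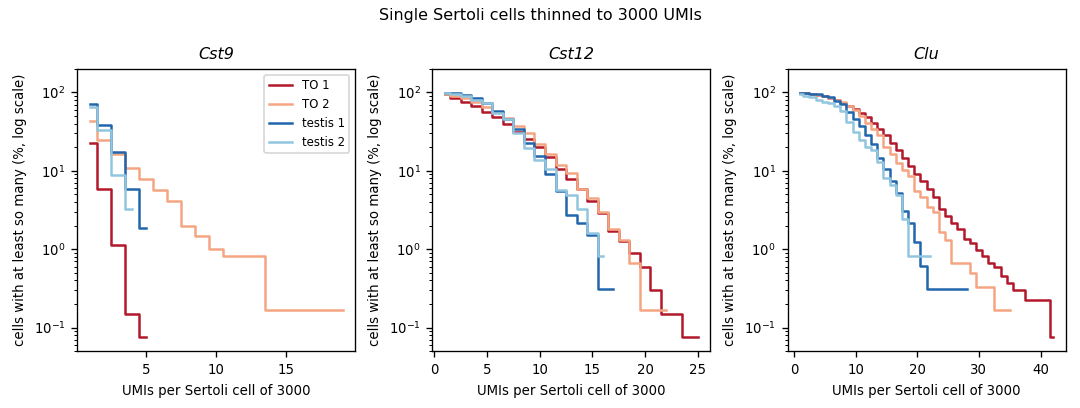
Single Sertoli cells of at least 3000 UMIs, each thinned to 3000. The x axes give the UMIs of Cst9, Cst12 or Clu in a cell and the y axes (log scale) the percentage of cells with at least that many, 1 line per library. The Cst9 line of TO 2 runs on to 19 UMIs, whereas those of TO 1 and the testes end at 5 or lower.

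The spread of Cst9 over single cells was also measured. Cells were thinned to 3000 UMIs, and this depth was chosen after the data had been seen. It left 1331 of 1463 and 602 of 636 TO cells, but 326 of 461 and 123 of 247 testis cells. The testis spread was thus measured without many of its shallow cells, and the part of this unequal cut was not tested. In TO 2 the mean was 1.22 Cst9 UMIs per cell, close to 1.35 and 1.11 in the testes, but 56.3% of TO 2 cells had none, against 27.9% and 34.1% of testis cells. The top 10% of cells held 54.4% of the Cst9 UMIs in TO 2 and 28.2% and 29.9% in the testes. In TO 1 the mean was 0.295, 77.6% of cells had none and the top 10% held 58.3%.

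The variance-to-mean ratio of Cst9, which is 1 where counting alone spreads the values, was 3.95 in TO 2 and 1.30 in TO 1, against 1.09 and 0.989 in the testes. Among these deeper cells Cst12 was also more uneven in TOs, with ratios of 3.03 and 2.54 against 1.33 and 1.59. Trf, at under 0.2 UMIs per cell, had 1.32 and 1.33 against 0.96 and 1.29. For both cystatins and Trf each TO was above each testis, with the smallest p that an exact two-sided permutation test of 2 against 2 libraries can give, 0.333. Clu (2.52 to 3.11 in TOs, 1.76 to 2.62 in testes) and Ctsl (3.59 to 3.70 in TOs, 2.22 to 5.21 in testes) overlapped between the groups. Qpct overlapped too, at 1.46 and 1.47 in TOs and 1.24 and 1.58 in testes.

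To compare the shares of cells with at least 1 UMI at equal depth, cells were thinned to 1500 UMIs. This left out 17 and 8 TO Sertoli cells and no testis Sertoli cell. Clu was found in 95.3% of TO 1 cells (exact Clopper-Pearson 95% interval 94.1% to 96.3%), 93.5% of TO 2, 81.3% of testis 1 and 61.5% of testis 2 (55.2% to 67.6%). Ctsl was found in 95.4%, 96.5%, 85.5% and 74.9%, in the same order. Both shares were higher in each TO than in each testis. These intervals cover counting error only, and the testes held the shallow cells described above.

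Cst12 was found in 82.4%, 86.8%, 85.0% and 79.8% of the thinned Sertoli cells of TO 1, TO 2, testis 1 and testis 2, and the groups overlapped. Qpct was found in 52.2% and 60.03% of TO cells and 34.1% and 34.4% of testis cells. Cst9 was found in 12.9% and 30.1% of TO cells and 40.3% and 35.2% of testis cells, lower in each TO than in each testis. Trf was found in 3.32%, 3.66%, 1.52% and 4.86%. The exact two-sided permutation p was 0.333 for Clu, Ctsl, Qpct and Cst9, the smallest these libraries allow, 0.667 for Cst12 and 1.0 for Trf.

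Stromal cells, thinned in the same way, served as the background for these shares (median depths of 3833 and 6780 UMIs in TOs and 2221 and 2927 in testes before thinning, against 10204, 11873, 6154 and 2941 in Sertoli cells). There Cst12 was found in 24.4% of TO 1 cells, 5.53% of TO 2 cells and 3.82% and 1.96% of testis cells. Cst9 was found in 1.54%, 0.52%, 0.347% and 0.244%, so that its share in Sertoli cells was far above background in every library. Clu was found in 33.97% and 8.84% of TO stromal cells and 4.69% and 3.42% of testis ones. Ctsl was found in 86.1% and 81.5% against 63.2% and 72.1%. In stromal cells too, both shares were thus higher in each TO than in each testis. Qpct was found in 5.64% and 1.33% against 3.3% and 3.18%. The exact 95% intervals of the Ctsl share in Sertoli and stromal cells overlapped in testis 2 alone (69.01% to 80.18% and 67.51% to 76.42%). Trf was found in 4.10% of TO 1 stromal cells, 1.37% of TO 2 and 0.521% and 3.18% in testes. The Trf share of TO 1 Sertoli cells, 3.32%, was below that of its stromal cells. Their exact 95% intervals overlapped (2.46% to 4.38% and 3.38% to 4.92%). The Trf level of TO 1 was 1.02 CPM in spermatocytes, 3.61 in spermatogonia, 28.0 in Sertoli cells and 36.5 in stromal cells. As counted, 18.1% of TO 1 Sertoli cells and 9.31% of stromal cells had a Trf UMI. In TO 2 the thinned Sertoli share was above the stromal share (3.66%, exact 95% interval 2.34% to 5.44%, against 1.37%, 0.986% to 1.84%), and in both testes the 2 intervals overlapped.

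**Figure D3:**
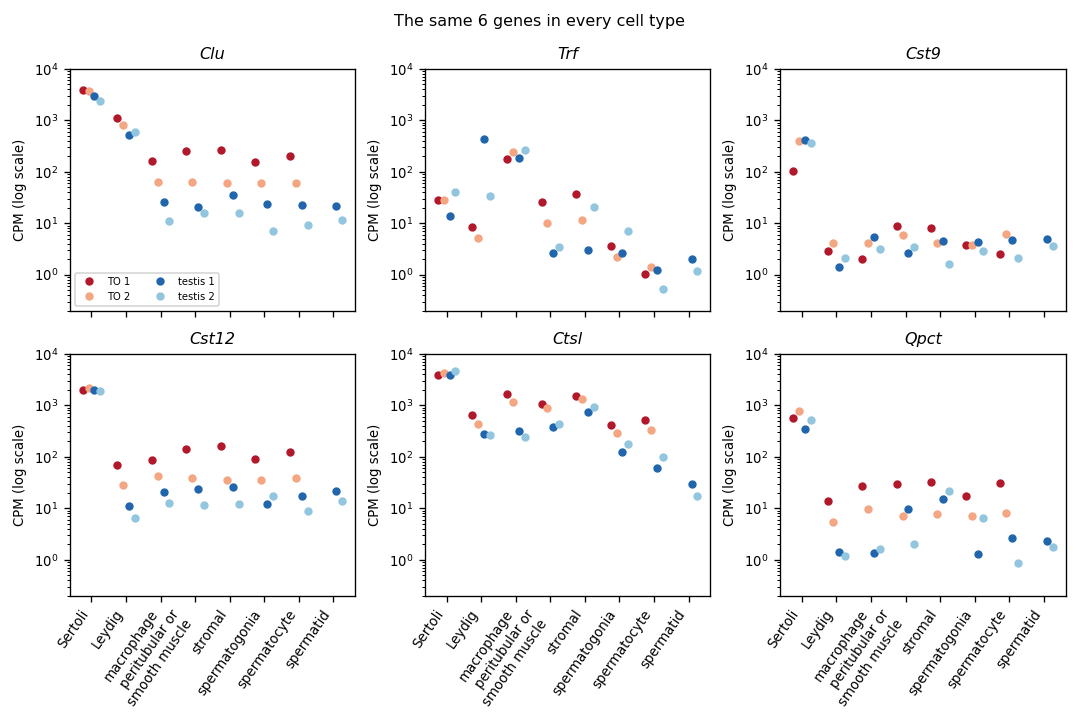
CPM (y axes, log scale) of the 6 genes in the summed cells of each type, 1 point per library. The TO cells called spermatid and the class called endothelial are not drawn. Clu, Cst9, Cst12, Ctsl and Qpct were highest in Sertoli cells of every library, whereas Trf was highest in macrophages or, in testis 1, in Leydig cells.

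Over all cell types compared, Sertoli cells ranked first for 5 of the 6 genes in each of the 4 libraries. The ratio of the Sertoli level to the next type was 67.1 and 97.5 for Cst9 and 78.3 and 82.2 for Cst12 in the testes. In TOs it was 11.6 and 64.7 for Cst9 and 12.2 and 51.8 for Cst12, lower in TO 1 for both. For Qpct it reached 17.6 and 80.5 in the TOs, against 22.9 and 24.6 in the testes. The ratios were smaller for Clu (3.47 to 5.71), whose next type was the Leydig cell in every library, and for Ctsl (2.34 to 5.15), next highest in stromal cells or, in TO 1, macrophages.

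Trf did not follow this order, and Sertoli cells ranked second or lower for it in every library. Macrophages, which recycle iron from the cells they take up, had 181 and 242 CPM in TOs and 186 and 262 in testes. The groups overlapped (log2 fold change 0.10, SE 0.29, edgeR adjusted p 0.85). By its level, Trf was thus not a leading Sertoli transcript in these libraries, in TOs or in testes.

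Leydig cells, the steroid-making cells between the tubules, held most Trf in 1 library. Their level was 439 CPM in testis 1, 34.1 in testis 2, 8.26 in TO 1 and 5.14 in TO 2. In testis 1, 263 of 567 Leydig cells (46.4%, exact 95% interval 42.2% to 50.6%) had a Trf UMI, 50 cells had 10 or more, and the highest had 55. In testis 2, 74 of 341 cells had one and the highest had 5. Both large Leydig clusters carried it in testis 1 (454 and 408 CPM). The log2 fold change was -5.31 (SE 1.19), with an edgeR adjusted p of 0.046 that missed the threshold, which 0.976% of the 12198 genes tested in Leydig cells passed. Without testis 1 it was -2.48 (adjusted p 0.014) and not called, and without testis 2 it was -6.17 (adjusted p 0.00018) and called. The stromal Trf difference, 1.08 (adjusted p 0.34), was called without TO 2 (1.63, adjusted p 0.0023). These fits of the other cell types without 1 library were chosen after seeing the data.

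Clu was measured in Leydig cells as well, at 1112 and 813 CPM in TOs and 513 and 600 in testes. Both TOs were higher, but the difference missed the threshold (log2 fold change 0.64, SE 0.29, edgeR adjusted p 0.21). In Sertoli and Leydig cells the log2 fold changes of Clu were thus 0.54 and 0.64, both uncalled.

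Ctsl differed between TO and testis outside the Sertoli cells. In macrophages it was 1701 and 1155 CPM in TOs against 314 and 244 in testes, and the log2 fold change of 2.53 (SE 0.32, edgeR adjusted p 9.73e-05) was called, as were 2.65% of genes in the upward direction. In spermatocytes it was 518 and 332 against 61.9 and 99.8 (log2 fold change 2.20, SE 0.30, edgeR adjusted p 0.00019, with 17.9% of genes called higher). Different clusters held most spermatocytes in the 2 conditions: cluster 12, led by genes such as the meiotic Dmc1 and Sycp3, held 240 of 329 and 272 of 315 TO cells but 348 of 1135 and 345 of 1233 testis cells. Within cluster 12 alone, Ctsl was at 500.1 and 336 CPM in TOs and 154 and 263 in testes, without a test. In cluster 13, with 57 and 27 TO cells, it was at 562 and 276 against 36.1 and 29.8. In cluster 16, with 32 and 16 TO cells, it was at 873 and 360 against 26.0 and 23.3. Peritubular or smooth muscle cells had 1057 and 903 against 379 and 433 (1.24, SE 0.24, edgeR adjusted p 0.0046, with 4% of genes called higher), a call that was lost without testis 1 (1.15, adjusted p 0.061) or testis 2 (1.31, adjusted p 0.047).

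Spermatogonia had 422 and 287 Ctsl CPM in TOs against 124 and 179 in testes. Their log2 fold change was 1.18 (SE 0.23, edgeR adjusted p 0.0032, with 0.248% of genes called higher), and it was not called without TO 1 (0.91, adjusted p 0.012) or testis 1 (0.93, adjusted p 0.0199). In stromal cells (0.85, SE 0.28, edgeR adjusted p 0.065, with 1.94% of genes called higher) and Leydig cells (0.82, SE 0.29, edgeR adjusted p 0.13, with 0.271% called higher) each TO was higher than each testis, but the difference was not called. No background was subtracted in these fits. Clu and Cst12, which were not tested in macrophages or spermatogonia, were also higher there in each TO than in each testis. In macrophages Clu was at 161 and 64.0 CPM against 25.8 and 11.2, and Cst12 at 85.2 and 41.8 against 20.4 and 12.8. In spermatogonia Clu was at 152 and 59.7 against 23.8 and 7.15, and Cst12 at 91.4 and 36.1 against 12.1 and 17.2. The part of free RNA was not tested. Ctsl was called higher in 4 of 6 other cell types tested and not in Sertoli cells. Only the macrophage call held in every fit that left out 1 library (2.23 to 2.82); the spermatocyte call held in the 3 such fits in which the gene was tested (1.91 to 2.39).

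**Figure D4:**
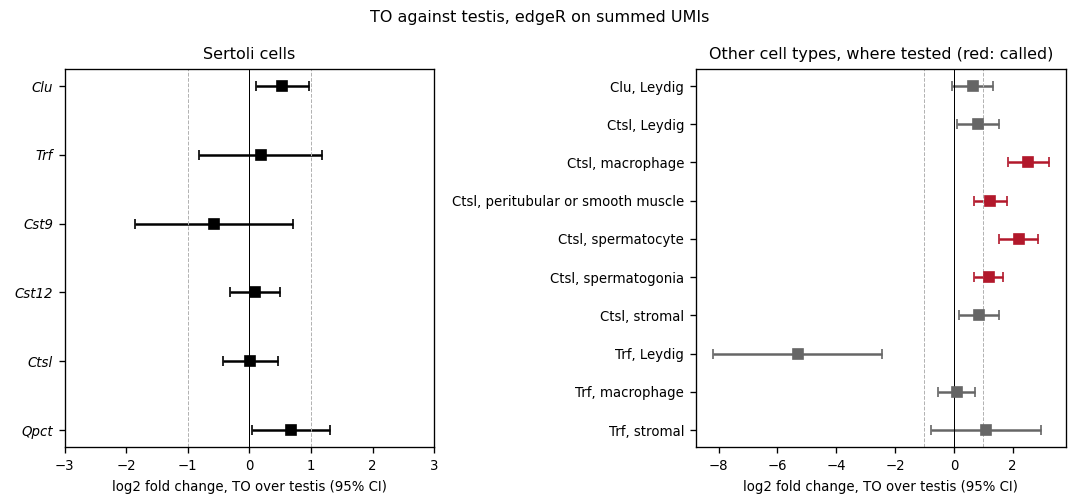
Log2 fold change of TO over testis with 95% intervals (x axes), in Sertoli cells (left) and in the other cell types in which the gene was tested (right). Red marks calls, and dashed lines mark 2-fold. All 4 calls are Ctsl, in macrophages, peritubular or smooth muscle cells, spermatocytes and spermatogonia.

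The difference between the fold change in Sertoli cells and that in the other somatic cells, summed, was itself tested, and 11.5% of 18093 genes were called. For Ctsl it was -1.23 (SE 0.27, edgeR adjusted p 0.0016) and called. For Cst12 it was -1.99 (SE 0.39, adjusted p 0.00042) and for Trf 2.20 (SE 0.57, adjusted p 0.0059), both called. Cst9 (-1.73, adjusted p 0.0104), Qpct (-0.58, adjusted p 0.41) and Clu (0.05, adjusted p 0.95) were not called. Unlike in the fits of single cell types, no gene was left out as background in this test. Cst12, Cst9 and Qpct were not tested in any other cell type singly. The summed cells included the class called endothelial. Their mix differed between conditions. TOs had 2684 and 3080 stromal and 1692 and 1555 Leydig cells, and testes had 576 and 409 stromal and 567 and 341 Leydig cells. Levels differed between these types, with Ctsl at 1518 and 1362 CPM in TO stromal cells and 639 and 427 in TO Leydig cells. The part of the cell mix in these differences was not tested. The Ctsl call was lost without either testis library, at -1.11 (adjusted p 0.073) without testis 1 and -1.42 (adjusted p 0.070) without testis 2.

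For Trf, the call was lost without testis 1, the library with high Trf in Leydig cells (0.42, edgeR adjusted p 0.49). For Cst12, the call was lost without testis 2 (-1.90, adjusted p 0.041), and the levels in Leydig, macrophage, peritubular or smooth muscle and stromal cells were 68.4 to 162 CPM in TO 1, 28.0 to 41.8 in TO 2 and 6.47 to 26.1 in the testes. After background subtraction the Cst12 difference was -6.54 (SE 1.57) and no longer called (adjusted p 0.10).

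The ratio of Cst12 to Clu UMIs was compared between types. In TO 1 it was 0.512 in Sertoli cells and between 0.53 and 0.619 in macrophages, peritubular, stromal, spermatogonial and spermatocyte cells. In TO 2 it was 0.596 in Sertoli cells and between 0.588 and 0.659 in the same types. In Leydig cells, which had Clu at higher levels, it was 0.061 and 0.034. In testes, where these counts were small, it was 0.697 and 0.817 in Sertoli cells and ranged from 0.507 to 2.4 in the same types. The part of free RNA in these values was not tested.

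Genes that handle iron with transferrin were measured in the same Sertoli sums. Of 10 listed, 8 were tested in Sertoli cells, 4 were higher in TOs and none lower, where 7.34% of all genes tested were higher and 16.6% lower, with a median log2 fold change of 0.79 against 0.02 over all genes tested. Tfrc, the transferrin receptor, was at 68.4 and 60.4 CPM in TOs and 34.4 and 20.9 in testes (log2 fold change 1.20, edgeR adjusted p 0.0057). The ferritin subunits that store iron were higher as well, Fth1 by 1.16 on the log2 scale (2716 and 3258 against 1277 and 1471) and Ftl1 by 1.34 (573 and 720 against 263 and 261). Slc39a14, a metal importer, was higher by 2.24 on the same scale, from lower levels. The iron-responsive regulators Aco1 (-0.04) and Ireb2 (-0.03) and the importer Slc11a2 (0.23) were not called. With the background subtracted none of the 4 was called (Tfrc 0.89, Fth1 0.93, Ftl1 1.13 and Slc39a14 2.07, edgeR adjusted p 0.018 to 0.092). In single omissions, Tfrc was not called without testis 2 (0.96), nor Fth1 without TO 2 (0.99) or testis 1 (1.04).

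Among the other cystatins, 4 of 7 genes were tested. Cstb, the intracellular cystatin B, was at 264 and 351 CPM in TO Sertoli cells and 67.3 and 111 in testis ones (log2 fold change 1.86, edgeR adjusted p 0.0019), and its call was lost with the background subtracted (2.00, adjusted p 0.038). Cst3, cystatin C, which is secreted by many cells, had 1012 and 816 against 503 and 490 (0.91, adjusted p 0.0045) and missed the fold threshold. Cst13 was lower in TOs (-7.21), from 0.353 and 0.14 CPM against 31.7 and 60.5. It was a leading gene of a spermatid cluster of 267 cells, all from testis 1. Spermatid RNA was present in the Sertoli cells of both testes, and its part in the Cst13 difference was not tested. With the background subtracted Cst13 was no longer among the genes tested. Cst8, at 13.3 and 15.3 against 50.1 and 87.4, and Cst11 were not tested.

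Of the lysosomal proteases that work beside cathepsin L, 6 of 11 were tested, 2 were higher in TOs and none lower (median log2 fold change 1.00), where 7.34% of all genes tested were higher. Without testis 1, 5 of 7 tested were higher. Ctsb, cathepsin B, was at 265 and 250 CPM in TOs and 107 and 97.1 in testes (1.37, edgeR adjusted p 0.00049). Lgmn, legumain, an endopeptidase that processes cathepsins, was at 1016 and 1463 against 231 and 394 (2.04, adjusted p 0.0021). Ctsd, cathepsin D, missed the threshold (0.87, adjusted p 0.014). Ctsf (0.06) and Ctso (0.23) were not called. Ctsh was at 413 and 324 CPM against 5.48 and 5.97, but was not tested because other cells held at least 5 times its level in 1 condition. With the background subtracted, Ctsb (1.12, adjusted p 0.014) and Lgmn (1.74, adjusted p 0.022) were not called.

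Of 20 other secreted Sertoli products, 17 were tested, 5 were higher in TOs and none lower (median log2 fold change 0.52), where 7.34% of all genes tested were higher and 16.6% lower. Without TO 1, TO 2 or testis 2, respectively 3, 1 and 2 of them were called lower. Sparc, an extracellular matrix glycoprotein, was at 6081 and 6512 CPM in TOs and 1760 and 1883 in testes (1.83, edgeR adjusted p 0.00027). Igfbp3, a binding protein of insulin-like growth factors, was at 194 and 278 against 9.39 and 3.73 (5.06, adjusted p 6.83e-05). Serpine2, an inhibitor of serine proteases, was at 103 and 75.2 against 5.08 and 1.49 (4.59, adjusted p 9.46e-05). Timp1, an inhibitor of matrix metalloproteinases, was higher by 2.00 on the log2 scale, and Gdnf, the growth factor for spermatogonial stem cells, by 2.24, at 14.4 and 14.0 CPM against 3.13 and 2.99. Serpine2 (4.77) and Igfbp3 (4.77) were still called with the background subtracted, whereas Sparc (1.55), Timp1 (1.71) and Gdnf (1.95) were not (adjusted p 0.011 to 0.022). Gdnf was not called without testis 1 either (2.25, adjusted p 0.013).

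Of these 17 products, 12 were not called. Kitl, the ligand that germ cells read through Kit, was at 417 and 386 CPM in TOs and 235 and 264 in testes (0.73, edgeR adjusted p 0.0094) and missed only the fold threshold. Inhbb, the inhibin and activin beta B subunit, was at 145 and 148 against 145 and 154 (0.01). Inha, the inhibin alpha subunit, was at 789 and 441 against 1138 and 751 (-0.59, adjusted p 0.15). Defb19, a defensin, was at 4236 and 3686 against 7551 and 3267 (-0.41, adjusted p 0.39), with testis 1 above the rest. Psap, the prosaposin once named sulfated glycoprotein 1, was at 1006 and 1050 against 767 and 702 (0.52, adjusted p 0.037).

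The remaining uncalled products at 50 CPM or more were Dhh (0.67, edgeR adjusted p 0.011), Defb36 (0.87), Timp2 (-0.14), Plat (0.36) and Serpina5 (-0.69). Ptgds, a prostaglandin synthase, was at 19.0 and 14.6 CPM in TOs and 129 and 296 in testes and was left out of the test as background. Of the clusterin receptors, 2 of 4 were tested and neither was called. Lrp8 was at 105 and 202 CPM in TOs and 163 and 184 in testes (-0.13), and Vldlr was at 11.9 or lower throughout. Qpctl, the Golgi paralog of Qpct, was at 10.9 or lower and not called (1.05, adjusted p 0.26).

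Likeness across cells was described by Pearson's r of log2(CPM + 1) over 36 sums, each of 1 cell type in 1 library, among 11147 genes of at least 50 CPM in some sum. The sums share libraries, depth and free RNA, so r is a description only. Cst12 was most like Tmem114 (0.987), 4933402E13Rik (0.984) and Shbg (0.977), the last of which encodes the androgen-binding protein of Sertoli cells. Qpct was most like Defb36 (0.964), Tmem114 (0.959) and Cidea (0.955), and Cst9 was most like 1700011M02Rik (0.951), Sept14 (0.945) and Dmrta1 (0.927). Clu was most like Tpd52l1 (0.938), Gm14226 (0.931) and Gm35533 (0.913).

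Ctsl was less closely followed, with Tspyl2 (0.896), Basp1 (0.894) and Usp9x (0.882). Trf was most like Mpeg1 (0.839), a macrophage gene, Hfe (0.834), which acts with the transferrin receptor, and Itm2b (0.819). Among the 6 genes, r was 0.941 for Cst12 with Qpct and 0.908 for Cst12 with Cst9, and Trf stood apart from the other 5 (0.098 to 0.444).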

How the data were processed

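Single-cell libraries of 2 TOs and 2 testes were analysed. The authors aligned the reads with Cell Ranger 7.1.0 to mm10 (submitters' processing notes) and deposited UMI counts per gene and barcode, before filters. The genes and lists were chosen with earlier results of these data known.

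Libraries held 11826 to 14643 barcodes and 74988295 to 119966959 UMIs, and pairs of libraries shared 30 to 55 barcodes. Doublets (0.8% per 1000 barcodes, by Scrublet score; 1119 to 1715 removed) and cells outside 1000 to 5000 genes, above 20000 UMIs or above 10% mitochondrial UMIs were removed. The study's doublet caller was not used. Counts were scaled to 10000, and 2000 variable genes (without the 6 genes and the listed genes), 30 components, a re-implemented Harmony and Leiden clusters (scanpy 1.11.5, leidenalg 0.10.2, resolution 1) were used. Clusters were named from at least 3 detected markers, and names may differ from the study's. Amh is both a naming marker and a listed product.

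UMIs were summed per type and library and tested in edgeR 4.0.16 (R 4.3.3; quasi-likelihood, TMM, filterByExpr; adjusted p below 0.01, absolute log2 fold change above 1). Genes at least 5 times higher in the other cells, in either condition, were left out as background. This was not done in the test of the difference between Sertoli and other somatic cells. On simulated data for the Sertoli comparison (12337 genes), 64.2%, 85.1% and 98.5% of genes changed by 1.5, 2 and 3 on the log2 scale were recovered. Shares were thinned to 1500 UMIs. DESeq2 1.42.0 and other settings were alternatives. Positions came from GENCODE vM21 (32158 of 32285 IDs found) and promoters from RefSeq. Genes named were the 6, listed genes that were called or reached 50 CPM in Sertoli cells, and the 3 genes most like each. Aco1, Cst11, Vldlr, Qpctl, Prm1 and Pecam1 fall outside this rule and were named after their values were seen.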

Additional observations from a re-analysis of the deposited data

Results flagged for a closer look

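Of the 6 genes, 3 differed in their TO-to-testis log2 fold change between Sertoli cells and the other somatic cells, in an interaction test (edgeR) that called 11.5% of 18093 genes. Trf differed by 2.20, Cst12 by -1.99 and Ctsl by -1.23. The cell mix of the other somatic cells differed between conditions, and its part was not tested. For Trf, Leydig cells of testis 1 moved with the result (439 CPM against 34.1 in testis 2), and the difference was 0.42 without that library. For Cst12, Leydig, macrophage, peritubular or smooth muscle and stromal cells had 6.47 to 162 CPM. For Ctsl, macrophages and peritubular or smooth muscle cells were the somatic types with a called increase. With 2 libraries per condition, no group was large enough for a test of outlying libraries.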

How the results depend on the processing

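No Sertoli fold change of the 6 genes was called in any of 21 alternative fits, except Cst9 without TO 2 (-1.89). Clu (0.17 to 0.79) and Qpct (0.35 to 1.05) kept their sign in all of them. Leaving out 1 library gave ranges of 0.42 to 0.67 for Clu, -0.53 to 1.08 for Trf, -1.89 to 0.087 for Cst9, -0.0052 to 0.18 for Cst12, -0.13 to 0.17 for Ctsl and 0.37 to 1.05 for Qpct, and of 610 to 1040 genes called higher and 1482 to 2023 lower (610 without testis 1). Signs turned, with no call, for Ctsl under DESeq2 (-0.0094) and RLE factors (-0.0095), for Ctsl (-0.23) and Cst12 (-0.056) without Harmony, for Ctsl without upper limits (-0.084), for Ctsl (-0.22) and Cst12 (-0.071) with cells classed singly, for Ctsl from 3000 UMIs per cell (-0.15; -0.12 in the same clusters, an alternative chosen after seeing the data), for Ctsl (-0.33) and Cst12 (-0.25) with background subtracted, and for Trf (-0.14) and Ctsl (-0.061) with sums thinned to the smallest library. Over all genes, 76 were higher and 127 lower with background subtracted, and 1374 lower with thinned sums, against 924 and 2093; the cause was not tested.

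The interaction test was less stable. Leaving out 1 library gave -0.45 to 0.50 for Clu, 0.42 to 3.83 for Trf, -2.82 to -0.66 for Cst9, -2.86 to -1.12 for Cst12, -1.42 to -1.11 for Ctsl and -1.60 to 0.47 for Qpct; without TO 2, Cst9 (-2.82) and Qpct (-1.60) were called. Clu turned to -0.49 without Harmony, -0.48 without upper limits and -0.12 with background subtracted. Calls were lost for Trf in the same 3 fits (1.86, 2.14 and 2.37), for Cst12 without upper limits (-2.21) and with background subtracted (-6.54), and for Ctsl with background subtracted (-1.51). With cells as counted, the difference in shares moved from 0.303 to 7.57 percentage points for Trf, from 2.21 to 7.29 for Cst12 and from 21.9 to 31.6 for Qpct, at unequal depths.

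TO and testis libraries share only replicate numbers, and no source pairs them (correlation of same-numbered deviations 0.13). With the replicate number as a block, the values were 0.54 for Clu, 0.26 for Trf, -0.91 for Cst9, 0.09 for Cst12, 0.02 for Ctsl and 0.69 for Qpct, with 1134 genes higher and 2246 lower, and none of the 6 was called. Among the listed genes, the block gave 3 cathepsins and legumain higher (from 2), 1 clusterin receptor higher (from 0) and 1 other secreted product lower (from 0). With the TO cells of the shared spermatid cluster added (chosen after seeing the data), none of the 6 was called. Trf rested on 35 and 54 UMIs in the testis Sertoli cells, and its value was -0.53 without testis 1 and 1.08 without testis 2.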
